A study of Mus musculus with 12 samples.

Results

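The genes described here are 36 mouse genes of mitosis and the spindle checkpoint, out of 40384 genes in the deposited table. They were chosen by name for their known roles, from entry into mitosis to cytokinesis, with earlier results of these data known. Ensembl identifiers were matched to symbols in GENCODE M21 to find them in the table. Each symbol had 1 identifier, and all 36 passed the filter on low values used for testing. Levels are FPKM, fragments per kilobase of gene, scaled to the counted fragments of the library.

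The study followed reprogramming of mouse embryonic fibroblasts to induced pluripotent stem cells with and without overexpression of Dux, a transcription factor of the early embryo, and RNA was sequenced after polyA selection. There were 4 groups of 3 libraries. The group iPSC holds induced pluripotent stem cells. D4_DUX holds cultures with the time label D4, the treatment label OE-DUX and overexpression for 48 h, and D4 holds cultures with the same time label and the treatment label OE-NC. The labels give the cell type of both D4 groups as MEF. The group MEF holds fibroblasts with no time or treatment label. The fibroblasts came from male homozygous 4F2A embryos of mid-gestation. The 4F2A strain is known for a doxycycline-inducible cassette with Oct4, Sox2, Klf4 and c-Myc. A growth text shared by every library, MEF included, names LIF and doxycycline at 2 μg/mL. The labels do not say whether the libraries of a group came from separate cultures, so p-values measure the spread between these libraries, which may be technical. They also do not say whether the iPSC libraries are 1 clone or several.

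Each library held an estimated 22530000 to 28130000 counted fragments, a depth inferred from the FPKM values. Replicates correlated with each other at r 0.990 to 0.996 (Pearson, across the 17114 tested genes, which are not independent). Libraries of different groups reached r 0.985. Mouse Dux, listed as Duxf3, was at 0 in all 3 libraries labelled D4_DUX, so the gene table does not show the overexpression and the group is named by its label. The 10 pluripotency markers checked, among them Nanog, Esrrb and Zfp42, summed to 1376 to 1534 FPKM in iPSC, 0.843 to 0.852 FPKM in the libraries labelled D4_DUX, 0.692 to 0.942 FPKM in D4 and 0.205 to 0.440 FPKM in MEF. Of these 10 markers, 0 were listed at 0 in iPSC, 1 to 5 in the libraries labelled D4_DUX, 2 to 5 in D4 and 5 to 7 in MEF. Pluripotency markers were thus a feature of the iPSC libraries, and the other groups held little of them. Fibroblast markers (10 genes, such as Col1a1, Thy1 and Pdgfra) summed to 776 to 1025 FPKM in iPSC, 2650 to 2720 FPKM in the libraries labelled D4_DUX, 3407 to 3533 FPKM in D4 and 6228 to 6367 FPKM in MEF, with none at 0 in any library. Macrophage markers (16 genes, such as Adgre1, Cd68 and Lyz2) summed to 135 to 179 FPKM in iPSC, 46.8 to 47.9 FPKM in the libraries labelled D4_DUX, 189 to 224 FPKM in D4 and 1606 to 1653 FPKM in MEF, with at most 1 at 0 in a library. These marker sums move with the groups, and their part in the results on mitotic genes was not tested.

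Mitosis begins when the kinase Cdk1, bound to a B-type cyclin, drives chromosome condensation and spindle assembly. Kinetochores then attach chromosomes to microtubules, and the spindle checkpoint kinases and their partners hold back the anaphase-promoting complex (APC/C), a ubiquitin ligase, until every kinetochore is attached. Its activator Cdc20 then directs cyclin B and securin to destruction, chromosomes separate and the central spindle organises cytokinesis. Many of these genes are transcribed in G2 and mitosis and repressed in quiescent cells, through the MuvB core shared by the DREAM complex, B-Myb and FoxM1 at promoter elements called CHR, and through NF-Y at CCAAT boxes.

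The promoters of 7 members described below are printed, to show windows with CCAAT letters alone (Ccnb1) and with CCAAT and CHR letters together (the other 6). Each runs from 150 bases before to 30 bases after the RefSeq gene start (GRCm38.p6), 5′ to 3′ on the strand of the gene. Capitals mark the letters TTTGAA or TTCGAA (used here for CHR) and CCAAT, on either strand, so TTCAAA and ATTGG mark matches on the opposite strand. The windows lie at chr13:100786457-100786636 (minus strand) for Ccnb1, chr9:70421525-70421704 (minus strand) for Ccnb2, chr10:69352883-69353062 (minus strand) for Cdk1, chr4:118437314-118437493 (minus strand) for Cdc20, chr19:37376232-37376411 (plus strand) for Kif11, chr8:22185790-22185969 (minus strand) for Ckap2 and chr7:135716350-135716529 (minus strand) for Mki67.
Ccnb1: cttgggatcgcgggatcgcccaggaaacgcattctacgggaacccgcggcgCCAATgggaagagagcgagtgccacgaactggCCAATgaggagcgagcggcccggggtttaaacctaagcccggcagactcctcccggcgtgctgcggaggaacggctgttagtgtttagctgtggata
Ccnb2: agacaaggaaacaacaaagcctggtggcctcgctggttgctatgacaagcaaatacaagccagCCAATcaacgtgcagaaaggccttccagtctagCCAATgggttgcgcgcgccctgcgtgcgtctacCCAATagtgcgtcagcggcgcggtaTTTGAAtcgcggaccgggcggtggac
Cdk1: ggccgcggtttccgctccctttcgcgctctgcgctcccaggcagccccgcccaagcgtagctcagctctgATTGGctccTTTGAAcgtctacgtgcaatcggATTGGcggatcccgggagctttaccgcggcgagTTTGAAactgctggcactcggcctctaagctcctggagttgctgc
Cdc20: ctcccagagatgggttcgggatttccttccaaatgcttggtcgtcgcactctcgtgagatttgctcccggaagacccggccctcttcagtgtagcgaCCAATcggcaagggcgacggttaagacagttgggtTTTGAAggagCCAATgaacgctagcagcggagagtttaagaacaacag
Kif11: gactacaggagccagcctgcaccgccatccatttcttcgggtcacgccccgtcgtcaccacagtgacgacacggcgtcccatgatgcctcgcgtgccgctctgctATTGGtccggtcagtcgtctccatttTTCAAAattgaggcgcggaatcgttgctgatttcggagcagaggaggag
Ckap2: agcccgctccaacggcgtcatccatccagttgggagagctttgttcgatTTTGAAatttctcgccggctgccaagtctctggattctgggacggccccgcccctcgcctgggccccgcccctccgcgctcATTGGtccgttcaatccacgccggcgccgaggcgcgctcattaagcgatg
Mki67: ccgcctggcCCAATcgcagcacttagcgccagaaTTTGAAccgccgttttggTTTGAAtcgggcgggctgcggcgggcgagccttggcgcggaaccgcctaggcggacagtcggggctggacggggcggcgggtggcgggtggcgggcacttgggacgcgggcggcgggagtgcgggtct

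In these lines Ccnb1 carries CCAAT letters but neither TTTGAA nor TTCGAA, while its paralogue Ccnb2 carries CCAAT letters upstream of TTTGAA just after the start. Other variants of the CHR were not searched, so a window without these letters may still hold one. Cdk1 and Mki67 each have 2 CHR matches in the printed stretch. RefSeq windows of 250 bases before to 50 after the start were found for 29 of the 36 members, and Aurkb, Ccna2, Foxm1, Incenp, Kif20a, Spc24 and Tpx2 had none in the table. CHR letters were in the windows of 22 of 29 members (75.9%), against 5854 of 27025 genes with a window (21.7%). CCAAT letters were in 22 of 29 members (75.9%), against 41.1% of all genes, and both were in 20 of 29 (69.0%), against 8.6%. At least 2 CCAAT matches were in 14 of 29 members (48.3%), against 13.3% of all genes. CHR letters lay within 50 bases of the start in 20 of 29 members, against 6.1% of all genes. No CHR match overlapped a CCAAT match. The windows of Birc5, Mad2l1, Nuf2, Nusap1 and Pttg1 held neither set of letters, those of Anln and Ndc80 held CHR but not CCAAT letters, and those of Ccnb1 and Cenpe held CCAAT but not CHR letters. A match describes the letters only.

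**Figure D1:**
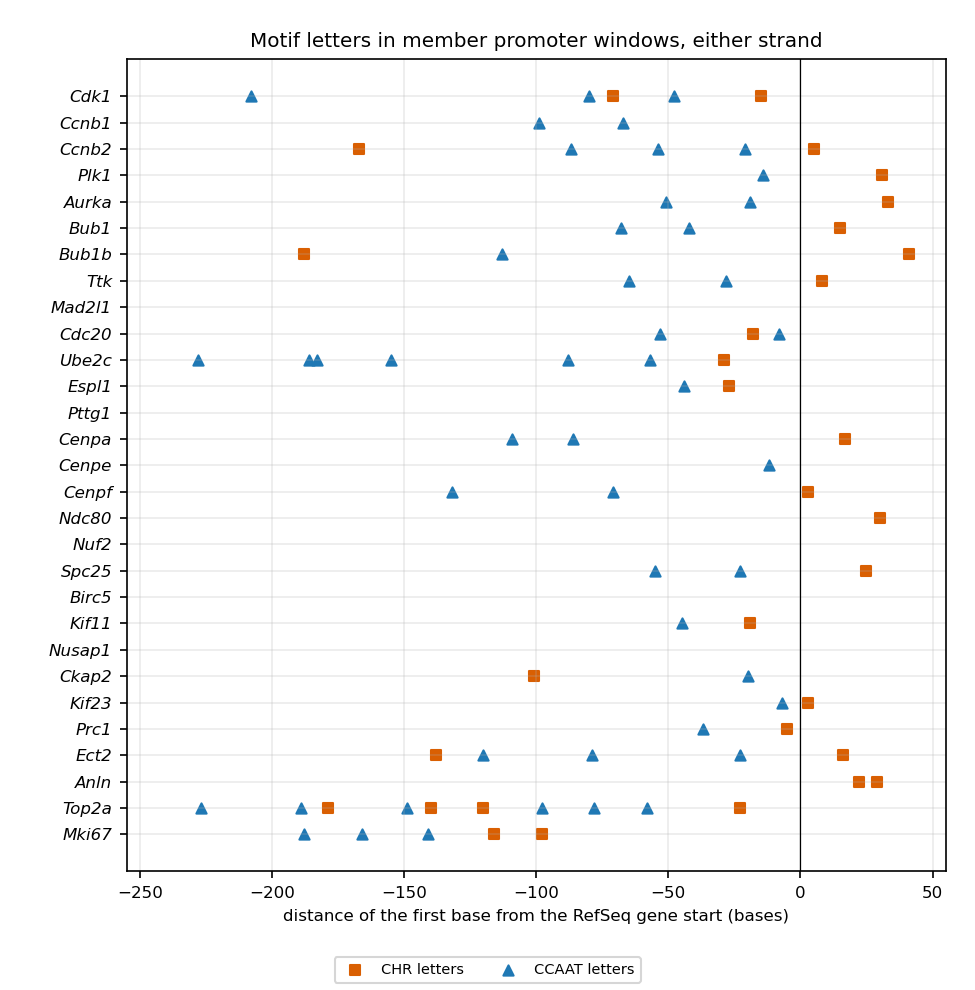
Positions of CHR letters (squares) and CCAAT letters (triangles) on either strand in the RefSeq promoter windows of 29 members, using the first window of the 2 members that have several; the x axis is the distance in bases from the gene start, and the vertical line marks the start. CCAAT matches lie upstream with a median position of -69.5 (48 matches, -228 to -7), and CHR matches lie nearer the start with a median of -15 (31 matches, -188 to 41).

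The 36 genes together were highest in iPSC and lowest in the libraries labelled D4_DUX. Their summed level was 1191, 1213 and 1247 FPKM in iPSC, 330, 332 and 332 FPKM in the libraries labelled D4_DUX, 391, 390 and 395 FPKM in D4, and 620, 606 and 615 FPKM in MEF. No group overlapped another in this sum, which was 0.380 to 0.4% of all FPKM in iPSC, 0.107 to 0.108% in the libraries labelled D4_DUX, 0.123 to 0.129% in D4 and 0.196 to 0.201% in MEF. In bulk RNA, fewer cells in mitosis and less RNA of these genes per cell cannot be told apart. Cdc20, the APC/C activator, had the highest level of the 36 in every group, and the lowest level was that of the kinetochore gene Nuf2 in iPSC and of its partner Ndc80 in the other 3 groups. The spread within groups was small, with a median coefficient of variation over the 36 genes of 4.73% in iPSC, 2.89% in the libraries labelled D4_DUX, 4.25% in D4 and 4.43% in MEF.

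**Figure D2:**
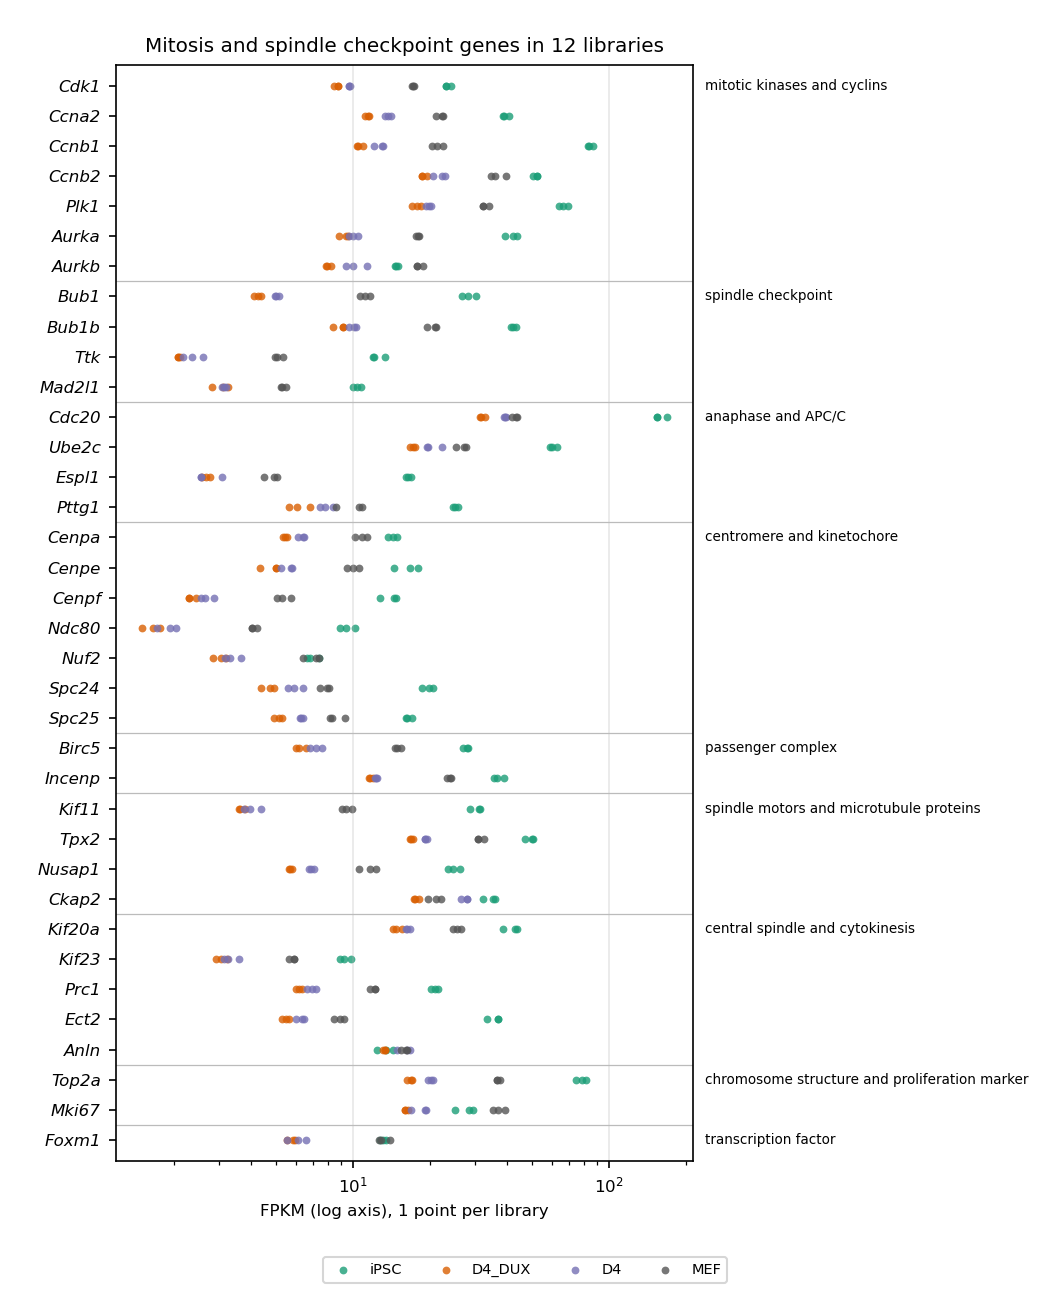
FPKM (log axis) of the 36 genes in each of the 12 libraries, 1 point per library, grouped by role down the page. Points of iPSC lie to the right of the other groups for most genes and points of the libraries labelled D4_DUX lie furthest left for most; for Anln, Nuf2, Foxm1, Mki67 and Aurkb the iPSC points do not all lie to the right of the MEF points.

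Setting the libraries labelled D4_DUX against D4 asks what the overexpression treatment does at the same time label. Most of the 36 genes were lower in D4_DUX-labelled libraries. limma, an empirical Bayes linear model, was fitted to log2(FPKM + 1) of 17114 genes, and p-values were adjusted by the Benjamini-Hochberg method over all of them, with a gene called at an adjusted p under 0.05. It called 22 of 36 lower and 0 higher, against 15.4% lower and 20.1% higher among all tested genes. All 36 log2 fold changes were below 0, so none was higher at an unadjusted p under 0.05 either, and their median was -0.18, against 0.02 over all tested genes. The 3 libraries of each group did not overlap for 29 members, all lower, against 21.9% of tested genes that were lower without overlap. The other 7 members, Mad2l1, Espl1, Ndc80, Nuf2, Kif11, Kif23 and Foxm1, overlapped. The summed level was 1.18-fold lower in D4_DUX-labelled than in D4 libraries. Over all genes, calls numbered 3432 higher and 2634 lower as deposited, 2875 higher and 2961 lower under median-ratio scaling and 2827 higher and 2750 lower under quantile normalization. Macrophage markers fell beside the members (14 of 16 called lower, median log2 fold change -1.24), as did fibroblast markers (6 of 10 lower, 1 higher), and their part in the result was not tested.

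The comparison of D4 with MEF asks what changed between the fibroblasts and the control cultures at time label D4. Nearly the whole list was lower in D4. limma called 34 of 36 lower and 1 higher, against 27.6% lower and 34.2% higher among all tested genes. The median log2 fold change was -0.71, against 0.03 over all tested genes, and the summed level was 1.57-fold lower in D4. Ckap2 was the member that was higher, and Anln was not called. The libraries did not overlap for 34 members that were lower and 1 that was higher, against 29.8% and 36.7% of tested genes. Of the macrophage markers, 16 of 16 were called lower in D4, and of the 10 fibroblast markers 8 were lower and 2 higher (Thy1 and Dcn). Over all genes, calls numbered 5858 higher and 4720 lower as deposited, 5159 higher and 5486 lower under median-ratio scaling and 5155 higher and 5386 lower under quantile normalization.

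The comparison of iPSC with MEF asks how the libraries labelled iPSC differ from the fibroblasts, and in it most members were higher in iPSC. limma called 31 of 36 higher and 3 lower, against 51% higher and 31.2% lower among all tested genes. The median log2 fold change of the members was 0.86, against 0.21 over all tested genes, and the summed level was 1.98-fold higher in iPSC. The 3 that were lower in iPSC were Mki67, Aurkb and Anln, and the 2 not called were Foxm1 and Nuf2. The libraries did not overlap for 31 members that were higher and 3 that were lower, against 51.1% and 31.3% of tested genes. The median of all genes moved with the scaling of the libraries, to 0.04 under median-ratio scaling and -0.07 under quantile normalization. The split of calls over all genes was then 7276 higher and 6633 lower under median-ratio scaling and 6609 higher and 7561 lower under quantile normalization, against 8733 higher and 5335 lower as deposited. Under both scalings Foxm1 and Nuf2 were called lower in iPSC, while Mki67, Aurkb and Anln kept their sign. Of the macrophage markers 16 of 16, and of the fibroblast markers 9 of 10, were called lower in iPSC. The fibroblast marker called higher was Dcn, at 211 ± 15.8 FPKM in iPSC and 186 ± 10.2 FPKM in MEF (SD), with overlap between the groups.

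Against D4, iPSC libraries were higher for 35 of 36 members and lower for Anln, where 48.5% of tested genes were called higher and 33.9% lower. The median log2 fold change was 1.52, against 0.16 over all tested genes, and the summed level was 3.11-fold higher in iPSC. The 36 genes did not overlap between these groups, against 48.6% of tested genes higher and 33.8% lower without overlap. Over all genes, quantile normalization gave 6712 higher and 7664 lower calls, against 8293 and 5802 as deposited. The 4 comparisons share libraries (D4 in 3 of them, MEF in 2 and iPSC in 2), so they are not independent of each other.

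**Figure D3:**
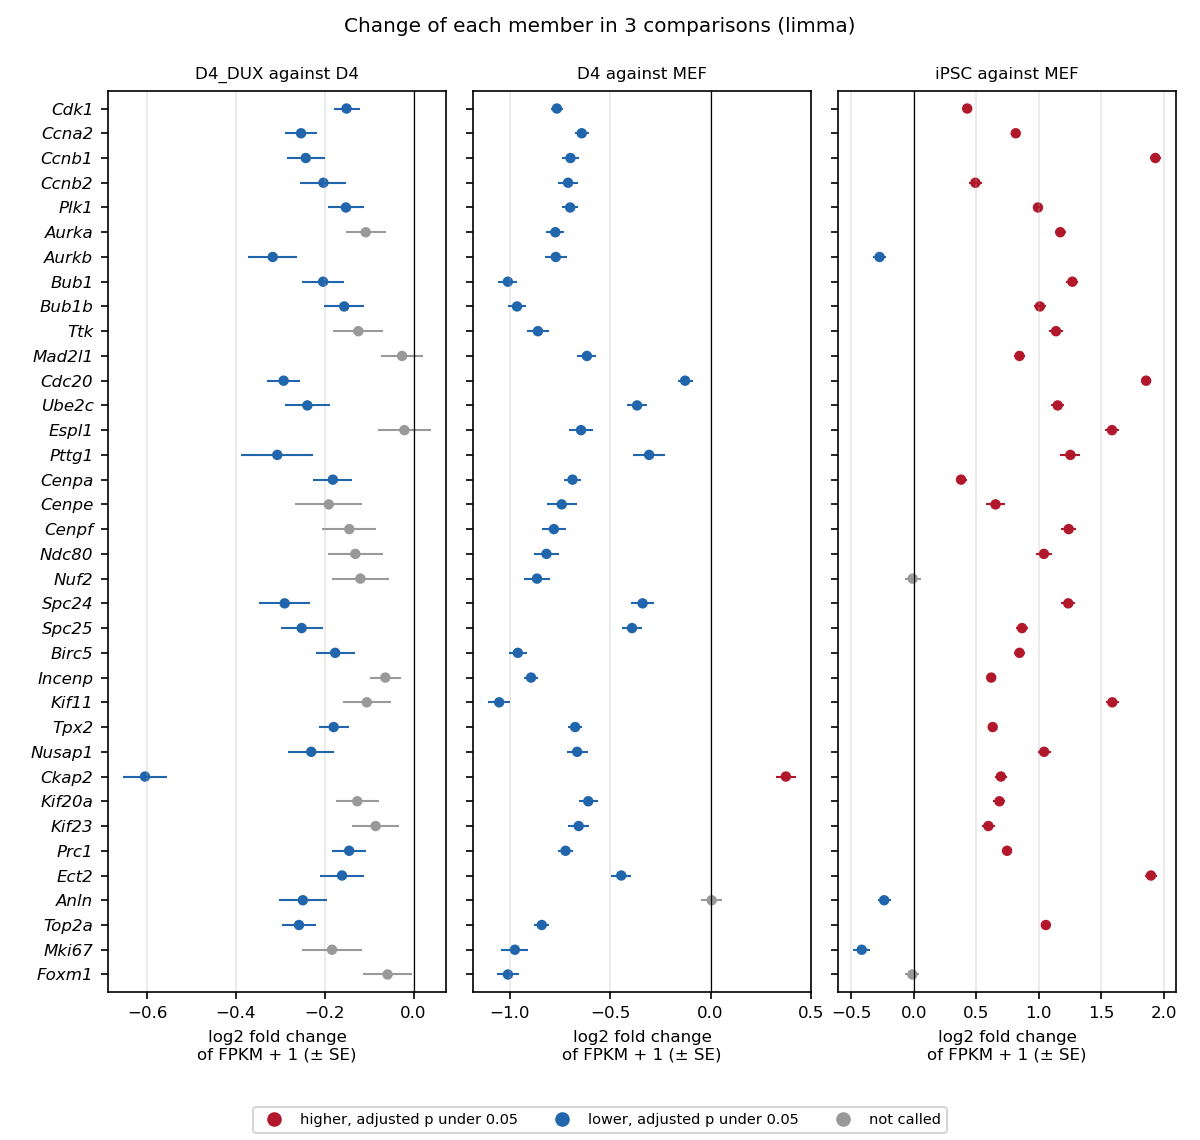
log2 fold change of FPKM + 1 with its SE (limma) for each of the 36 genes in 3 comparisons, each panel with its own x axis; blue marks genes called lower, red marks genes called higher and grey marks genes not called at an adjusted p under 0.05. Ckap2 stands furthest left in the comparison of D4_DUX with D4 and is the red point in that of D4 with MEF, and Mki67, Aurkb and Anln are the blue points in that of iPSC with MEF.

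Among the kinases and cyclins of mitotic entry, Cdk1, the kinase that starts mitosis, had 23.2, 23.1 and 24.1 FPKM in iPSC, 8.45, 8.73 and 8.71 FPKM in the libraries labelled D4_DUX, 9.68, 9.71 and 9.69 FPKM in D4, and 17.2, 17 and 17.4 FPKM in MEF. The groups did not overlap, with iPSC highest and the libraries labelled D4_DUX lowest. The log2 fold change was -0.15 ± 0.03 (SE) for D4_DUX against D4 (limma adjusted p = 0.00231), -0.77 ± 0.03 for D4 against MEF (limma adjusted p = 1.14e-09) and 0.43 ± 0.03 for iPSC against MEF (limma adjusted p = 5.2e-08). Its partner cyclin B1, Ccnb1, had 82.6, 86.7 and 83.5 FPKM in iPSC, 10.9, 10.5 and 10.4 FPKM in the libraries labelled D4_DUX, 12.1, 13.1 and 13 FPKM in D4, and 21.2, 20.3 and 22.4 FPKM in MEF. All 4 groups were apart, and the distance from iPSC to the rest was far wider than that among the rest. It was 3.95-fold higher in iPSC than in MEF (log2 fold change 1.93 ± 0.04, limma adjusted p = 2.94e-12), the largest log2 fold change of the list in that comparison, and 6.61-fold higher in iPSC than in D4. The second B-type cyclin, Ccnb2, had 52.6, 50.6 and 52.6 FPKM in iPSC, 18.7, 18.7 and 19.5 FPKM in the libraries labelled D4_DUX, 20.6, 22.4 and 23 FPKM in D4, and 34.5, 35.9 and 39.6 FPKM in MEF. It was 1.42-fold higher in iPSC than in MEF (log2 fold change 0.49 ± 0.05, limma adjusted p = 2.8e-06), while both B cyclins were lower in D4 than in MEF by nearly the same log2 fold change, -0.70 for Ccnb1 and -0.71 for Ccnb2.

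Cyclin A2, Ccna2, which acts in S phase and early mitosis, averaged 39.5 ± 1.18 FPKM in iPSC, 11.4 ± 0.237 FPKM in the libraries labelled D4_DUX, 13.7 ± 0.378 FPKM in D4 and 22 ± 0.733 FPKM in MEF (SD, n = 3 each). Plk1, a kinase of centrosome maturation and mitotic exit, had 66.1, 64 and 69.2 FPKM in iPSC, 18.5, 17.8 and 17 FPKM in the libraries labelled D4_DUX, 19.9, 19.3 and 20.2 FPKM in D4, and 32.3, 32.1 and 34.1 FPKM in MEF. It was lowest in the libraries labelled D4_DUX, with a log2 fold change of -0.15 ± 0.04 against D4 (limma adjusted p = 0.0138), and that call was lost without D4_DUX replicate 3 (log2 fold change -0.12, limma adjusted p = 0.0600). Aurora A, Aurka, which builds spindle poles, averaged 41.6 ± 2.25 FPKM in iPSC, 9.25 ± 0.358 FPKM in the libraries labelled D4_DUX, 10.05 ± 0.436 FPKM in D4 and 17.9 ± 0.242 FPKM in MEF. It was 2.33-fold higher in iPSC than in MEF (log2 fold change 1.17 ± 0.05, limma adjusted p = 3.16e-10). Aurora B, Aurkb, the kinase of the chromosomal passenger complex, went the other way, with 15, 14.7 and 14.8 FPKM in iPSC, 8.19, 7.93 and 7.86 FPKM in the libraries labelled D4_DUX, 9.36, 11.3 and 10.01 FPKM in D4, and 17.8, 18.8 and 17.8 FPKM in MEF. MEF was the highest group for Aurkb and iPSC came second, without overlap. Aurkb was lower in iPSC than in MEF, with a log2 fold change of -0.27 ± 0.05 (limma adjusted p = 0.000608), and it had the second largest fall of the list in D4_DUX against D4, -0.32 ± 0.05 (limma adjusted p = 0.00113). Of the 7 kinases and cyclins, 6 were lower in D4_DUX-labelled than in D4 libraries, beside 15.4% of all tested genes. Aurka was not called there (log2 fold change -0.11 ± 0.05, limma adjusted p = 0.0887). Under quantile normalization Aurka was called lower (limma adjusted p = 0.0420).

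Of the 4 spindle checkpoint genes, 4 were lower in D4 than in MEF, beside 27.6% of all tested genes. All 4 were higher in iPSC than in MEF, beside 51% of all tested genes. Bub1b, which encodes the checkpoint protein BubR1, had 41.3, 42.2 and 43.4 FPKM in iPSC, 9.15, 8.39 and 9.18 FPKM in the libraries labelled D4_DUX, 10.3, 9.67 and 10.1 FPKM in D4, and 21, 19.4 and 21.2 FPKM in MEF. Its groups did not overlap, though the 2 D4 groups lay close together. The log2 fold change in D4_DUX against D4 was -0.16 ± 0.05 (limma adjusted p = 0.0199). That call was lost without D4_DUX replicate 2, D4 replicate 1 or D4 replicate 3 (limma adjusted p = 0.0812, 0.0732 and 0.0530). Bub1, the kinase that recruits it to kinetochores, had 26.8, 28.1 and 30.2 FPKM in iPSC, 4.12, 4.37 and 4.25 FPKM in the libraries labelled D4_DUX, 4.98, 5.14 and 5 FPKM in D4, and 11.7, 10.7 and 11.1 FPKM in MEF. It was 2.22-fold lower in D4 than in MEF (log2 fold change -1.01 ± 0.05, limma adjusted p = 6.25e-09), one of the 3 largest falls of the list. Ttk, the kinase also called Mps1, averaged 12.5 ± 0.776 FPKM in iPSC, 2.09 ± 0.0244 FPKM in the libraries labelled D4_DUX, 2.37 ± 0.217 FPKM in D4 and 5.11 ± 0.193 FPKM in MEF (SD, n = 3 each). Mad2l1, whose product binds Cdc20, had 10.4, 10.02 and 10.8 FPKM in iPSC, 2.82, 3.11 and 3.26 FPKM in the libraries labelled D4_DUX, 3.18, 3.13 and 3.08 FPKM in D4, and 5.46, 5.24 and 5.3 FPKM in MEF. The libraries labelled D4_DUX lay on both sides of the D4 libraries, and the log2 fold change was -0.03 ± 0.05 (limma adjusted p = 0.725), with a sign that turned without D4_DUX replicate 1 (0.02).

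In the anaphase and APC/C group, Cdc20 had 168, 154 and 154 FPKM in iPSC, 32.9, 31.6 and 31.2 FPKM in the libraries labelled D4_DUX, 39.2, 39.7 and 39 FPKM in D4, and 42, 43.6 and 43.4 FPKM in MEF. It was lower in D4_DUX-labelled than in D4 libraries (log2 fold change -0.29 ± 0.04, limma adjusted p = 0.00017) and 3.69-fold higher in iPSC than in MEF (limma adjusted p = 1.59e-12). D4 and MEF were much closer for Cdc20 than for most of the list, with a log2 fold change of -0.13 ± 0.04 (limma adjusted p = 0.0121) beside the median of -0.71. Ube2c, the E2 enzyme of the APC/C, had 59.8, 59 and 62.6 FPKM in iPSC, 16.8, 17.2 and 17.5 FPKM in the libraries labelled D4_DUX, 19.7, 22.2 and 19.5 FPKM in D4, and 25.2, 27.2 and 27.6 FPKM in MEF, and its log2 fold change in D4_DUX against D4 was -0.24 ± 0.05 (limma adjusted p = 0.00414). Securin, Pttg1, which inhibits separase, had 24.6, 25.1 and 25.7 FPKM in iPSC, 5.65, 6.08 and 6.81 FPKM in the libraries labelled D4_DUX, 7.76, 8.4 and 7.46 FPKM in D4, and 10.8, 8.61 and 10.6 FPKM in MEF. Its replicates were the most scattered of the list in MEF, and its lowest MEF library stood within 1 FPKM of the highest D4 library. The log2 fold change in D4_DUX against D4 was -0.31 ± 0.08 (limma adjusted p = 0.0126), a call lost without D4_DUX replicate 1 (limma adjusted p = 0.0540). Separase itself, Espl1, had 16.2, 16.3 and 16.9 FPKM in iPSC, 2.76, 2.58 and 2.67 FPKM in the libraries labelled D4_DUX, 2.55, 2.56 and 3.07 FPKM in D4, and 4.92, 5.06 and 4.49 FPKM in MEF. D4_DUX and D4 overlapped for Espl1 (log2 fold change -0.02 ± 0.06, limma adjusted p = 0.837), and the sign turned without D4 replicate 3 (0.04), while iPSC stood 6.04-fold above D4.

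Kinetochore and centromere genes were lower in D4 than in MEF for 7 of 7 members, beside 27.6% of all tested genes. In iPSC against MEF 6 of 7 were higher, beside 51% of all tested genes. Cenpa, the histone H3 variant that marks centromeres, had 13.8, 14.3 and 14.8 FPKM in iPSC, 5.35, 5.46 and 5.53 FPKM in the libraries labelled D4_DUX, 6.13, 6.38 and 6.42 FPKM in D4, and 10.8, 10.2 and 11.4 FPKM in MEF. Its groups did not overlap, and its log2 fold change of 0.38 ± 0.04 in iPSC against MEF (limma adjusted p = 7.18e-06) was the smallest among the members called higher there. Among the 4 subunits of the Ndc80 complex, which holds microtubules, Ndc80 averaged 9.5 ± 0.644 FPKM in iPSC and 4.09 ± 0.107 FPKM in MEF, and Spc24 19.7 ± 0.957 FPKM in iPSC and 7.8 ± 0.347 FPKM in MEF (SD, n = 3 each). Spc25 averaged 16.4 ± 0.501 FPKM in iPSC and 8.58 ± 0.61 FPKM in MEF. Nuf2, the fourth subunit, had 6.61, 6.77 and 7.37 FPKM in iPSC, 2.84, 3.04 and 3.19 FPKM in the libraries labelled D4_DUX, 3.65, 3.31 and 3.17 FPKM in D4, and 7.16, 6.39 and 7.37 FPKM in MEF. Its iPSC and MEF libraries overlapped (log2 fold change -0.01 ± 0.06, limma adjusted p = 0.897), and under median-ratio scaling it was called lower in iPSC (log2 fold change -0.21, limma adjusted p = 0.0115). In D4 against MEF, the log2 fold change was -0.82 for Ndc80, -0.87 for Nuf2, -0.34 for Spc24 and -0.39 for Spc25, all called lower. In D4_DUX against D4 it was Spc24 (-0.29 ± 0.06, limma adjusted p = 0.00244) and Spc25 (-0.25 ± 0.05, limma adjusted p = 0.00197) that were called lower, and Ndc80 (-0.13 ± 0.06, limma adjusted p = 0.123) and Nuf2 (-0.12 ± 0.06, limma adjusted p = 0.172) were not. The difference between these pairs was not tested. Cenpe, a kinesin that moves chromosomes to the spindle equator, and Cenpf, a large kinetochore protein, were 1.64-fold and 2.62-fold higher in iPSC than in MEF, and were not called in D4_DUX against D4.

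Both passenger complex genes were lower in D4 than in MEF and higher in iPSC than in MEF. The corresponding shares of all tested genes were 27.6% and 51%. In D4 against MEF the log2 fold change was -0.96 ± 0.04 for Birc5, which encodes survivin, and -0.89 ± 0.04 for Incenp, the scaffold of the complex (limma adjusted p = 4.83e-09 and 1.46e-09). Birc5 averaged 27.6 ± 0.638 FPKM in iPSC, 6.24 ± 0.283 FPKM in the libraries labelled D4_DUX, 7.19 ± 0.389 FPKM in D4 and 14.9 ± 0.392 FPKM in MEF (SD, n = 3 each). Incenp averaged 37 ± 1.72 FPKM in iPSC, 11.7 ± 0.204 FPKM in the libraries labelled D4_DUX, 12.3 ± 0.111 FPKM in D4 and 23.7 ± 0.454 FPKM in MEF. In iPSC against MEF the log2 fold change was 0.85 ± 0.04 for Birc5 and 0.62 ± 0.04 for Incenp (limma adjusted p = 3.94e-09 and 9.38e-09), beside -0.27 for Aurkb, the kinase of the same complex.

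Kif11, the kinesin that pushes spindle poles apart, had 28.7, 31 and 31.5 FPKM in iPSC, 3.62, 3.79 and 3.6 FPKM in the libraries labelled D4_DUX, 3.76, 3.95 and 4.38 FPKM in D4, and 9.88, 9.06 and 9.37 FPKM in MEF. The 2 D4 groups overlapped at the low end and iPSC was far above MEF. Its fall in D4 against MEF was the largest of the list, 2.34-fold (log2 fold change -1.05 ± 0.05, limma adjusted p = 1.3e-08), and so was its rise in iPSC against D4, 7.54-fold (log2 fold change 2.64 ± 0.05). Tpx2, which activates Aurora A on the spindle, averaged 49.2 ± 1.72 FPKM in iPSC, 16.9 ± 0.225 FPKM in the libraries labelled D4_DUX, 19.3 ± 0.229 FPKM in D4 and 31.4 ± 1.06 FPKM in MEF (SD, n = 3 each). Nusap1, a spindle microtubule binder, averaged 24.8 ± 1.34 FPKM in iPSC, 5.72 ± 0.082 FPKM in the libraries labelled D4_DUX, 6.88 ± 0.179 FPKM in D4 and 11.5 ± 0.846 FPKM in MEF.

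Ckap2 (ENSMUSG00000037725), a microtubule-associated protein of the spindle poles, followed its own course, with 32.3, 35.2 and 35.9 FPKM in iPSC, 17.4, 18.1 and 17.5 FPKM in the libraries labelled D4_DUX, 27.9, 26.4 and 27.9 FPKM in D4, and 22, 21.1 and 19.6 FPKM in MEF. D4 stood above MEF and the libraries labelled D4_DUX stood below MEF, with no overlap. In D4_DUX against D4 it had the largest fall of the list, 1.55-fold (log2 fold change -0.61 ± 0.05, limma adjusted p = 6.37e-06), and in D4 against MEF it was the member that rose, 1.31-fold (log2 fold change 0.38 ± 0.05, limma adjusted p = 3.76e-05). These 2 changes share the D4 libraries. iPSC was 1.65-fold above MEF (log2 fold change 0.70 ± 0.05, limma adjusted p = 6.36e-08).

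In the cytokinesis group, Ect2, the exchange factor that activates RhoA at the division plane, had 33.4, 37 and 37 FPKM in iPSC, 5.29, 5.65 and 5.5 FPKM in the libraries labelled D4_DUX, 6.31, 6.43 and 5.99 FPKM in D4, and 9.26, 8.42 and 8.9 FPKM in MEF. It was 4.04-fold higher in iPSC than in MEF (log2 fold change 1.90 ± 0.05, limma adjusted p = 1.13e-11). Its log2 fold change in D4_DUX against D4 was -0.16 ± 0.05 (limma adjusted p = 0.0256). That call was lost without D4_DUX replicate 1 or 3 and without D4 replicate 1 or 2 (limma adjusted p = 0.0903, 0.0596, 0.0720 and 0.0789). Anln, the anillin scaffold of the contractile ring, had 12.4, 14.3 and 13.4 FPKM in iPSC, 13.1, 13.4 and 13.3 FPKM in the libraries labelled D4_DUX, 16.8, 14.9 and 16.3 FPKM in D4, and 16.3, 16.1 and 15.4 FPKM in MEF. The iPSC and D4_DUX libraries lay below the D4 and MEF libraries, which overlapped each other, and the D4 and MEF means were nearly equal (log2 fold change 0.01 ± 0.05, limma adjusted p = 0.953; -0.06 under median-ratio scaling). Anln was lower in iPSC than in D4 (log2 fold change -0.24 ± 0.05, limma adjusted p = 0.00122) and lower in D4_DUX-labelled than in D4 libraries (-0.25 ± 0.05, limma adjusted p = 0.0041). Prc1, which bundles central spindle microtubules, averaged 20.9 ± 0.692 FPKM in iPSC, 6.14 ± 0.176 FPKM in the libraries labelled D4_DUX, 6.9 ± 0.268 FPKM in D4 and 12 ± 0.294 FPKM in MEF. Its log2 fold change in D4_DUX against D4 was -0.15 ± 0.04 (limma adjusted p = 0.0142), a call lost without D4_DUX replicate 2 or D4 replicate 1 (limma adjusted p = 0.0551 and 0.0592). Kif20a and Kif23, the kinesins of the central spindle, were not called in that comparison (limma adjusted p = 0.0605 and 0.247). Kif20a was called lower there under median-ratio scaling, quantile normalization, a fit of only the 2 groups and without D4_DUX replicate 2 (limma adjusted p = 0.0403, 0.0292, 0.0329 and 0.0496). Both were higher in iPSC than in MEF, with a log2 fold change of 0.69 ± 0.05 for Kif20a and 0.60 ± 0.05 for Kif23. Kif20a averaged 41.7 ± 2.7 FPKM in iPSC, 14.9 ± 0.586 FPKM in the libraries labelled D4_DUX, 16.4 ± 0.261 FPKM in D4 and 25.5 ± 0.905 FPKM in MEF.

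Top2a, the topoisomerase that untangles sister chromosomes, and Mki67, the gene of the proliferation marker Ki-67, which coats mitotic chromosomes, were set beside each other as marks of cycling cells. Top2a had 74.1, 78.4 and 81.7 FPKM in iPSC, 16.3, 17 and 16.9 FPKM in the libraries labelled D4_DUX, 20.2, 19.7 and 20.6 FPKM in D4, and 37.7, 36.7 and 36.6 FPKM in MEF. Mki67 had 25, 28.5 and 29.6 FPKM in iPSC, 16, 15.9 and 16.4 FPKM in the libraries labelled D4_DUX, 19.2, 16.9 and 19.3 FPKM in D4, and 39.4, 37 and 35.3 FPKM in MEF. Neither gene's iPSC libraries overlapped its MEF libraries, but Top2a stood above MEF and Mki67 below it. The log2 fold change in iPSC against MEF was 1.06 ± 0.04 for Top2a (limma adjusted p = 1.47e-10) and -0.42 ± 0.07 for Mki67 (limma adjusted p = 0.000107). In D4 against MEF both were lower, with a log2 fold change of -0.84 ± 0.04 for Top2a (limma adjusted p = 4.1e-09) and -0.98 ± 0.07 for Mki67 (limma adjusted p = 1.62e-07). In D4_DUX against D4, Top2a was lower (-0.26 ± 0.04, limma adjusted p = 0.000373), and Mki67 missed the threshold (-0.18 ± 0.07, limma adjusted p = 0.0523). Mki67 passed it under quantile normalization, median-ratio scaling, a filter of 5 FPKM, a fit of only the 2 groups and without D4 replicate 2 (limma adjusted p = 0.0365, 0.0418, 0.0413, 0.0496 and 0.0180).

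Foxm1, the transcription factor that drives many genes of this list in G2 and mitosis, had 12.7, 13.1 and 13.4 FPKM in iPSC, 5.94, 5.84 and 5.52 FPKM in the libraries labelled D4_DUX, 6.09, 5.53 and 6.55 FPKM in D4, and 14, 12.7 and 12.9 FPKM in MEF. iPSC and MEF overlapped (log2 fold change -0.01 ± 0.06, limma adjusted p = 0.852), and so did the 2 D4 groups (log2 fold change -0.06 ± 0.06, limma adjusted p = 0.46). The D4 libraries were 2.18-fold lower than MEF (log2 fold change -1.01 ± 0.06, limma adjusted p = 2.53e-08). In iPSC against MEF the sign of the Foxm1 change turned without iPSC replicate 1 (0.01) and without MEF replicate 1 (0.03). Under quantile normalization Foxm1 was called lower (log2 fold change -0.28, limma adjusted p = 0.000803).

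**Figure D4:**
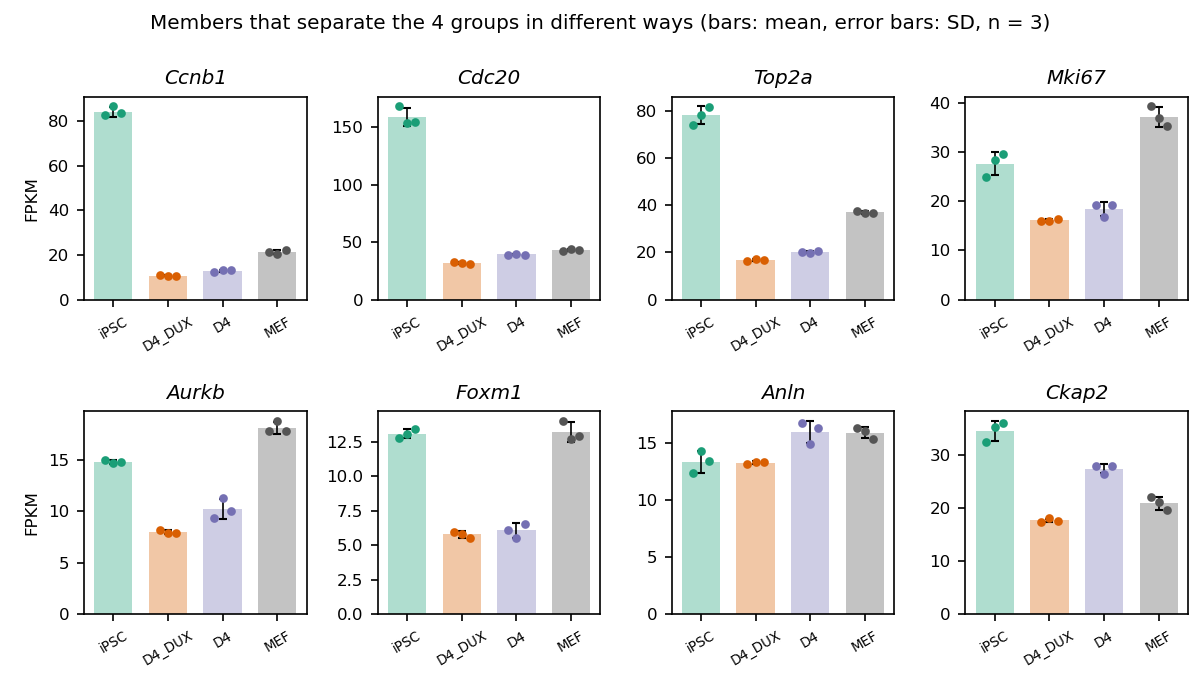
FPKM of 8 members in the 4 groups; bars are means of 3 libraries from 0, error bars are SD and points are libraries. Ccnb1, Cdc20 and Top2a are highest in iPSC, Mki67 and Aurkb are highest in MEF, Anln is lower in iPSC than in MEF, Foxm1 overlaps between iPSC and MEF, and Ckap2 is higher in D4 than in MEF and in the libraries labelled D4_DUX.

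A further 100 genes of mitosis, all tested, were counted beside the 36 and were also chosen with earlier results of these data known. In D4_DUX against D4, 35 were lower and 12 higher (median log2 fold change -0.09), where 15.4% of all tested genes were lower and 20.1% higher. In D4 against MEF 81 were lower and 4 higher (median -0.46), where 27.6% of all tested genes were lower and 34.2% higher. In iPSC against MEF 84 were higher and 7 lower (median 0.75), where 51% of all tested genes were higher and 31.2% lower. By role, D4_DUX against D4 had 9 of 15 spindle and centrosome genes lower and 0 higher, 5 of 9 other kinesins lower and 0 higher, and 11 of 31 checkpoint, kinetochore and centromere genes lower and 3 higher. Mitotic entry kinases and phosphatases had 5 lower and 2 higher of 11, condensin and cohesin genes 3 lower and 3 higher of 17, and APC/C genes 2 lower and 4 higher of 17. Differences between these roles were not tested. In the lists with 0 higher by limma, 0 were higher at an unadjusted p under 0.05, and the largest log2 fold change was 0.02 for the kinesins and -0.03 for the spindle and centrosome genes. Ckap2l, a paralogue of Ckap2, had the smallest adjusted p of its list, at 8.84 ± 0.209 FPKM in the libraries labelled D4_DUX and 11.6 ± 0.159 FPKM in D4 (SD, n = 3 each; log2 fold change -0.36 ± 0.04, limma adjusted p = 3.51e-05). Hjurp, the chaperone that loads Cenpa, averaged 12.1 ± 0.372 FPKM in D4 and 24.8 ± 0.593 FPKM in MEF (log2 fold change -0.98 ± 0.03, limma adjusted p = 5.63e-10). Fbxo5, an inhibitor of the APC/C, averaged 35.8 ± 1.69 FPKM in iPSC and 8.18 ± 0.376 FPKM in MEF (log2 fold change 2.01 ± 0.07, limma adjusted p = 1.22e-10). Of the 17 APC/C genes, 10 were higher and 4 lower in iPSC against MEF, beside 51% and 31.2% of all tested genes. Cdc16, an APC/C subunit, was lower in iPSC (24.8 ± 0.217 FPKM) than in MEF (49.7 ± 1.37 FPKM), with the smallest adjusted p of that list (log2 fold change -0.98 ± 0.03, limma adjusted p = 5.73e-11). Of 11 mitotic entry genes 10 were higher and 1 was lower, Cdc25b (log2 fold change -1.21 ± 0.05, limma adjusted p = 4.09e-10).

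Of 22 genes of the DREAM, MuvB and Myb regulators, 4 were lower and 4 higher in D4_DUX against D4, near the shares over all tested genes (15.4% lower, 20.1% higher). Of the same 22, 13 were lower and 5 higher in D4 against MEF, beside 27.6% and 34.2% of all tested genes. Between iPSC and MEF, 19 were higher and 1 lower in iPSC, beside 51% and 31.2%. Mybl2, which encodes B-Myb, averaged 187 ± 14.4 FPKM in iPSC and 4.15 ± 0.196 FPKM in MEF (log2 fold change 5.19 ± 0.06, limma adjusted p = 1.54e-14), a gap wider than that of any member, beside a log2 fold change of -0.01 for Foxm1. Its relative Mybl1 was higher in D4 than in MEF (log2 fold change 0.97 ± 0.08, limma adjusted p = 1.04e-06) and lower in D4_DUX-labelled than in D4 libraries (-0.55 ± 0.08, limma adjusted p = 0.000433). Both comparisons share the D4 libraries.

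Of the 44 genes of DNA replication, 5 were lower and 3 higher in D4_DUX against D4 (median log2 fold change -0.02), beside 15.4% lower and 20.1% higher over all tested genes. Their summed level was 369 ± 3.80 FPKM in the libraries labelled D4_DUX and 377 ± 5.03 FPKM in D4 (SD, n = 3 each). In D4 against MEF 37 of 44 were lower and 2 higher (median -0.40), beside 27.6% and 34.2% of all tested genes. In iPSC against MEF 41 were higher and 1 lower (median 1.16), beside 51% and 31.2%. No test of the difference between the replication and mitotic lists was made. The 15 G1 cyclins and CDK inhibitors were split, with 6 higher and 4 lower in D4_DUX against D4, beside 20.1% and 15.4% of all tested genes. In D4 against MEF 8 were higher and 7 lower (log2 fold changes -0.95 to 3.95), beside 34.2% and 27.6%. Of these 15, Ccnd1, which encodes cyclin D1, was 485 ± 5.16 FPKM in the libraries labelled D4_DUX and 273 ± 4.2 FPKM in D4 (log2 fold change 0.83 ± 0.04, limma adjusted p = 2.36e-07), with 16.7 ± 0.863 FPKM in MEF. The CDK inhibitor gene Cdkn1c was lower in D4_DUX-labelled than in D4 libraries (log2 fold change -0.55 ± 0.07, limma adjusted p = 0.000105). The CDK inhibitor genes Cdkn1a and Cdkn2a were 197 ± 4.35 and 73.1 ± 4.62 FPKM in D4, against 68.8 ± 1.16 and 15.5 ± 1.27 FPKM in MEF (log2 fold change 1.50 ± 0.04 and 2.17 ± 0.09; limma adjusted p = 2.2e-11 and 2.73e-09).

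How closely each gene followed the list was described by Pearson's r with the mean of the standardized members over the 12 libraries, which fall into 4 groups, so r mostly reflects the group means. Among the members, Top2a was nearest the mean (r 0.999) and Anln furthest from it (r -0.158), followed by Ckap2 (0.712), Mki67 (0.728) and Aurkb (0.776). Among other tested genes the 8 most alike were Smc4 (0.9993), a condensin subunit, then Sgk1, Zfp281, Pou2f2, Plekha5, Syk, Kif22 and Sgo2a (0.9963). Smc4, the nearest of them, averaged 14.4 ± 0.202 FPKM in the libraries labelled D4_DUX and 17 ± 0.617 FPKM in D4 (SD, n = 3 each; log2 fold change -0.23 ± 0.04, limma adjusted p = 0.00113).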

How the data were processed

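The authors deposited 1 table of FPKM values, with 1 column per library for 12 libraries in 4 groups of 3, and all columns were used. The build was mm10, per the submitters' processing notes. The aligner, the counter, the annotation and the strand setting are each not given in the sources used here. Of the 40384 Ensembl identifiers, 40225 (99.6%) matched GENCODE M21, on the same GRCm38 build. FPKM times exon length moved in steps, from which the counted fragments per library were estimated. Of the low values, 47.4 to 49.5% lay at whole multiples of the step, so these counts are approximate. Mouse Dux was read from this table.

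Values were analysed as log2(FPKM + 1), so log2 fold changes of low genes are smaller than their FPKM ratios. The 17114 genes that reached 1 FPKM in 3 or more libraries were tested. limma 3.58.1 in R 4.3.3 fitted 4 group means to all 12 libraries, with a prior variance following mean expression, and p-values were Benjamini-Hochberg adjusted over all tested genes. The procedure was tested on simulated data with independent normal noise around real group means. Such data cannot show the effect of spread shared between libraries. Members and lists were chosen with earlier results of these data known. Genes with full values are the 3 highest and 3 lowest log2 fold changes of each comparison, 11 members named as central, and from each other list up to 3 genes of smallest adjusted p. Others named with values, such as Ccnb2, Nuf2, Ndc80 and Ube2c, complete their role group and were taken after values were seen. Promoter sequences are from RefSeq (GRCm38.p6). Alternatives covered pseudocount, filter, scaling, libraries fitted, replicate block and leaving out each library.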

Additional observations from a re-analysis of the deposited data

How the results depend on the processing

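Across 21 alternatives and settings, none of the 127 called member results of the 4 comparisons changed sign, 5 lost their call and 6 uncalled ones gained it. The members called lower in D4_DUX against D4 numbered 19 to 22 when 1 library was left out (22 with all, 22 with a replicate block). The calls lost there were those of Plk1, Bub1b, Pttg1, Prc1 and Ect2. In the same comparison Aurka, Incenp, Kif20a and Mki67 gained a call as lower in some alternatives. The median log2 fold change ranged over the same fits from -0.18 to -0.17 in D4_DUX against D4, -0.73 to -0.70 in D4 against MEF, 0.84 to 0.89 in iPSC against MEF and 1.49 to 1.54 in iPSC against D4. In D4 against MEF the median was -0.79 with a pseudocount of 0.1, -0.77 with median-ratio scaling, -0.78 with quantile normalization and -0.76 as TPM. In iPSC against MEF it was 0.94 with a pseudocount of 0.1, 0.65 with median-ratio scaling and 0.61 with quantile normalization, and 5 members were called lower under each of these scalings, where Foxm1 and Nuf2 joined. In iPSC against D4 it was 1.62 with a pseudocount of 0.1, 1.365 with median-ratio scaling, 1.366 with quantile normalization and 1.59 as TPM. The cause of these shifts was not tested. Signs turned for 5 uncalled results. With 1 library left out, Mad2l1 ranged from -0.0618 to 0.0184 (positive without D4_DUX replicate 1) and Espl1 from -0.0545 to 0.0444 (positive without D4 replicate 3) in D4_DUX against D4. Anln in D4 against MEF ranged from -0.0278 to 0.0521, and was -0.0605 with median-ratio scaling and -0.0662 with quantile normalization. In iPSC against MEF, Nuf2 ranged from -0.0633 to 0.0264 and Foxm1 from -0.0375 to 0.0284. Deviations of same-numbered libraries from their group means correlated at -0.146 to 0.0624 (12 pairs), and a differently numbered pair reached 0.221. With so few libraries a group this cannot exclude pairing, and the labels do not say whether the numbers pair libraries. With the replicate block the counts of called members were unchanged in the 4 comparisons. Dropping a library leaves 2 in its group, and the pooled spread then stands for it.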

Other observations

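For 3 pairs of related members the ratio in iPSC stood outside the range of the other groups. The pairs were chosen after the values were seen, so the ratios are a description with no test. The ratio of Ccnb1 to Ccnb2 was 1.57 to 1.71 in iPSC, 0.533 to 0.585 in the libraries labelled D4_DUX, 0.568 to 0.588 in D4 and 0.565 to 0.616 in MEF. The ratio of Aurka to Aurkb was 2.61 to 2.95 in iPSC, 1.13 to 1.18 in the libraries labelled D4_DUX, 0.887 to 1.12 in D4 and 0.937 to 1.02 in MEF. The ratio of Mki67 to Top2a was 0.337 to 0.363 in iPSC, 0.938 to 0.984 in the libraries labelled D4_DUX, 0.855 to 0.949 in D4 and 0.966 to 1.05 in MEF. In each ratio the iPSC range did not overlap those of the other 3 groups.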
